A study of Mus musculus with 10 samples.

Results

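Forkhead transcription factors are DNA-binding proteins that share a winged-helix domain, and in the mouse their genes are named Fox followed by a letter for the subfamily and a number. All genes of the deposited count table whose symbol had that form were taken as members, whatever their values. The rule itself was set with earlier results of these data known. This gave 44 of 47729 genes, on 16 chromosomes. A member was called measured if it had 10 or more counts in 5 or more of the 10 libraries, which held for 29 members, and silent otherwise, which held for 15. All 29 measured members also passed the filter of the test across all genes, and 0 silent members did.

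RNA came from forelimb buds of mouse embryos at stage E11.5 to E12, with 5 control and 5 knockout libraries. The 5 knockout embryos carried Prx1Cre and a floxed Cxxc1 on both alleles (Prx1Cre_+-Cxxc1fl_fl). Among the controls, number 1 carried Prx1Cre with 1 floxed allele (Prx1Cre_+-Cxxc1fl_wt), numbers 2 and 4 no Cre with 1 floxed allele (CreWT-Cxxc1fl_WT), number 3 no Cre with 2 floxed alleles (CreWT-Cxxc1fl_fl), and number 5 is labelled Prx1Cre?-Cxxc1fl_fl, which leaves its Cre status unclear. Every embryo therefore carried at least 1 floxed allele. Litter A gave libraries 1 and 2 of both groups, and litters B, C and D gave libraries 3, 4 and 5. Prx1Cre is active in limb bud mesenchyme, so that ectoderm, vessels, blood and migrating muscle precursors in the same bud keep the gene. Somite stages ran from 49 to 51 in both groups.

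CXXC1 recognises CpG that carries no methyl group, as a subunit of SET1 enzymes that place methyl marks on histone H3. Its transcript, counted over the whole gene, ranged over 89.5 to 105.8 CPM in the controls and over 73.1 to 76.2 CPM in the knockouts, without overlap (log2 fold change -0.36, SE 0.05, edgeR quasi-likelihood test, adjusted p = 0.000144). CPM are counts brought to a common library total, here scaled by the trimmed mean of M-values (TMM), p-values are adjusted over all genes by Benjamini-Hochberg, and values of a group are mean ± SD with n = 5. Markers of limb mesenchyme were present in every library, with a summed level of 8 genes of 1938 to 2094 CPM in the control and 1058 to 1196 CPM in the knockout libraries, and 5 of the 8 fell. Markers of cartilage (6 of 8 fell, 574 to 1016 and 201 to 236 CPM) and of tendon and connective tissue (6 of 7 tested fell, 219 to 326 and 76.2 to 101.7 CPM) were lower. Those of macrophages (8 of 8 rose, 48.4 to 60.3 and 185.9 to 220.0 CPM), ectoderm (6 of 8 rose, 273.8 to 452.2 and 508.5 to 613.1 CPM) and endothelium (7 of 8 rose, 241.8 to 284.6 and 302.0 to 353.0 CPM) were higher. Erythroid markers (7 of 8 rose, 2073 to 2411 and 2437 to 5228 CPM) were higher as well. Of muscle precursor markers 4 of 7 tested rose. Their summed levels overlapped (69.8 to 91.4 and 62.5 to 143.8 CPM), with knockout 1 below every control and the other knockouts above every control. Of all genes tested, 18.1% rose and 17.1% fell at an adjusted p below 0.05. Control 1 and knockout 3 had high Xist (4114 and 2290 CPM, and 0.360 to 5.48 CPM in the other libraries). In RNA of whole buds, fewer cells of a type and less RNA per cell cannot be told apart.

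Several forkhead subfamilies have known roles in the limb and its tissues. Foxc1 and Foxc2 act in mesenchyme that forms skeleton and in vessels, Foxp1, Foxp2 and Foxp4 are repressors with roles in skeletal and muscle patterning, and Foxf1, Foxf2 and Foxl1 are known as mesenchymal genes that respond to hedgehog signals. Foxo proteins are held in the cytoplasm by PI3K and AKT signals and otherwise drive genes of cell cycle arrest, metabolism and stress resistance, while Foxm1 drives genes of mitosis and Foxk1 and Foxk2 act on metabolism and chromatin.

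Because CXXC1 binds CpG, the promoters of members were examined for it. RefSeq promoter windows (GRCm38.p6, 250 bases before to 50 after the start, the most upstream start given for each gene) were at hand for 28 of 44 members, 17 measured and 11 silent. The start of a transcript was found on the given strand in 22 of the 28. Some windows lay inside the annotated gene and may not describe its other starts. On the minus strand, that of Foxn3 ended at 99450324 with the gene reaching 99563582, and that of Foxp1 at 99521243 with the gene reaching 99522721. On the plus strand, that of Foxj3 began at 119539411 with the gene starting at 119537004, and that of Foxp3 at 7579426 with the gene starting at 7573644. The 250 bases before the start are shown for Foxc1, the member that fell most, for Foxo3 and Foxp4, an abundant member that rose and one that fell, and for Foxi2, the measured member with the fewest CpG. Capitals mark each CpG.
Foxc1, chr13:31806396-31806645, plus strand: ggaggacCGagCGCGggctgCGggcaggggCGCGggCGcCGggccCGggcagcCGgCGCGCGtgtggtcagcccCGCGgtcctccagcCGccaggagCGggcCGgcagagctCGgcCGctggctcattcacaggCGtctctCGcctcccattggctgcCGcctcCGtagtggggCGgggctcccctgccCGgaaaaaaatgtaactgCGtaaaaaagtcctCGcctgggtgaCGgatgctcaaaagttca
Foxo3, chr10:42276696-42276945, minus strand: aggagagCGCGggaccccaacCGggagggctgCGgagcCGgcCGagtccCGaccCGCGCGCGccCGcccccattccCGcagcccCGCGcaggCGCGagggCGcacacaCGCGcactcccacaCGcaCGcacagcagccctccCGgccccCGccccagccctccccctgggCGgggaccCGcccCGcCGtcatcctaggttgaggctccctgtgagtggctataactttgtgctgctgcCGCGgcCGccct
Foxp4, chr17:47924633-47924882, minus strand: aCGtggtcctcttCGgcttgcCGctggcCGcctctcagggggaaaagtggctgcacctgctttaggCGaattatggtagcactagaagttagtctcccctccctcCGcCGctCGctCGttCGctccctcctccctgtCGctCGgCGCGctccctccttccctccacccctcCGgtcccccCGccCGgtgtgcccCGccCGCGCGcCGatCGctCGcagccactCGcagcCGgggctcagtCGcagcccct
Foxi2, chr7:135410117-135410366, plus strand: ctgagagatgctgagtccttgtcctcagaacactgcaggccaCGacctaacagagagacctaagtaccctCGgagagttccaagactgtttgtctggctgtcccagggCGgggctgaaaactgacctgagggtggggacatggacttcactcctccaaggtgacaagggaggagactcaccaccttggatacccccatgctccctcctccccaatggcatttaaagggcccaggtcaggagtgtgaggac
The stretches of Foxc1, Foxo3 and Foxp4 hold 29, 31 and 27 CpG, and that of Foxi2 holds 3. In the 300-base windows the median was 27 CpG in the 17 measured members, 12 in the 11 silent members, 19 in 12881 promoters of tested genes and 7 in all 27025 promoters. At least 10 CpG were present in 14 of 17 measured members (82.4%), 8 of 11 silent members (72.7%), 75.5% of promoters of tested genes and 44.0% of all promoters. As a ratio of observed to expected CpG, the medians were 0.79 for measured members, 0.55 for silent members, 0.72 for tested genes and 0.39 for all promoters. Among measured members with a window, the 2 that rose had 31 and 35 CpG (Foxo1 and Foxo3), the 5 that fell had 13 to 42 (Foxp1 lowest, Foxj3 highest), and the 10 that did not pass had 5 to 59, with Foxk2 at 59. The other 8 of the 15 called members had no window, and Foxp1 lay below the median of the tested genes. These counts say nothing on methylation or on binding, which were not measured. The forkhead motif GTAAACA (either strand, its reverse complement TGTTTAC) occurred in the window of 1 of 28 members, the silent Foxa1, and in 3.52% of all promoters.

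**Figure D1:**
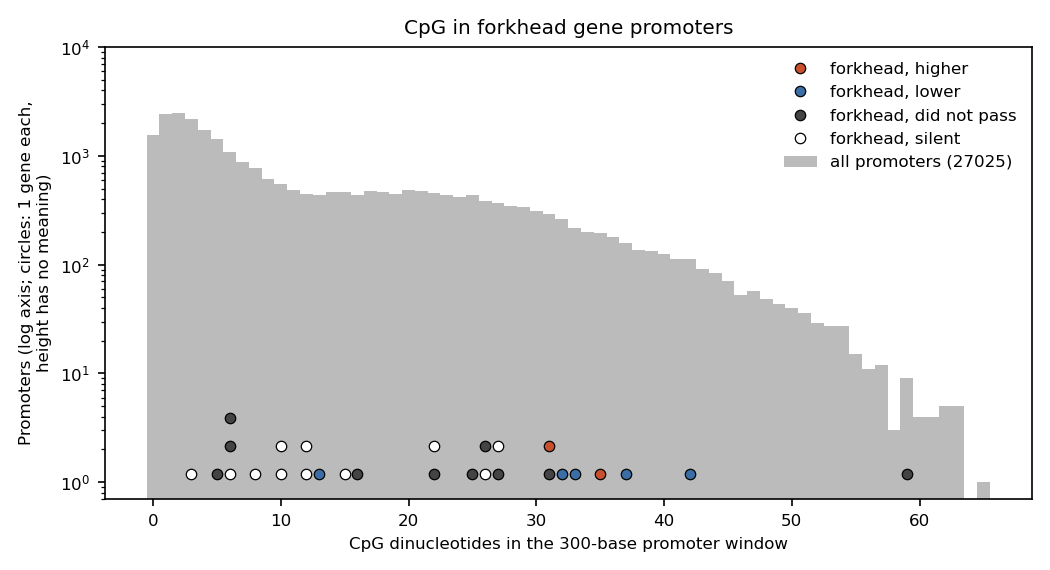
CpG dinucleotides in the 300-base RefSeq promoter window (horizontal axis) for 27025 promoters (grey bars, log axis) and for the 28 forkhead genes with a window (circles, coloured by the call in knockout against control, their height carrying no value). The 7 called forkhead genes with a window (of 15 called) lie between 13 and 42 CpG, beside medians of 19 for tested genes and 7 for all promoters, and Foxp1 at 13 lies below the first.

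In the knockout, 6 of the 29 measured members rose, 9 fell and 14 stayed short of the threshold (adjusted p below 0.05 over the 20562 genes tested with edgeR). The 15 called members are 51.7% of those measured, beside 35.2% called among all genes tested, 18.1% higher and 17.1% lower. Foxc1, Foxp2, Foxc2, Foxp1, Foxj2, Foxp4, Foxo4, Foxm1 and Foxj3 fell, in order of size, and Foxl1, Foxf1, Foxo3, Foxo1, Foxn2 and Foxk1 rose. The median log2 fold change of the measured members was -0.10, and -0.001 over all genes tested. Changes of at least 2-fold were called in 4 members, Foxc1, Foxp2, Foxl1 and Foxf1, 2 lower and 2 higher. Among all genes tested such changes were 7.04%, of which 4.8% were higher and 2.24% lower. The groups did not overlap in 9 members, 6 lower and 3 higher (31.03%), beside 25.3% of all genes tested. Level bore on these counts: of the 13 members with a mean of at least 10 CPM over all libraries 11 were called, 4 higher and 7 lower, beside 44.3% of the 10309 tested genes at that level (19.3% higher, 24.9% lower), and of the 16 below it 4 were called, beside 26.1% of 10253 genes. The level of 10 CPM was chosen after the values were seen.

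**Figure D2:**
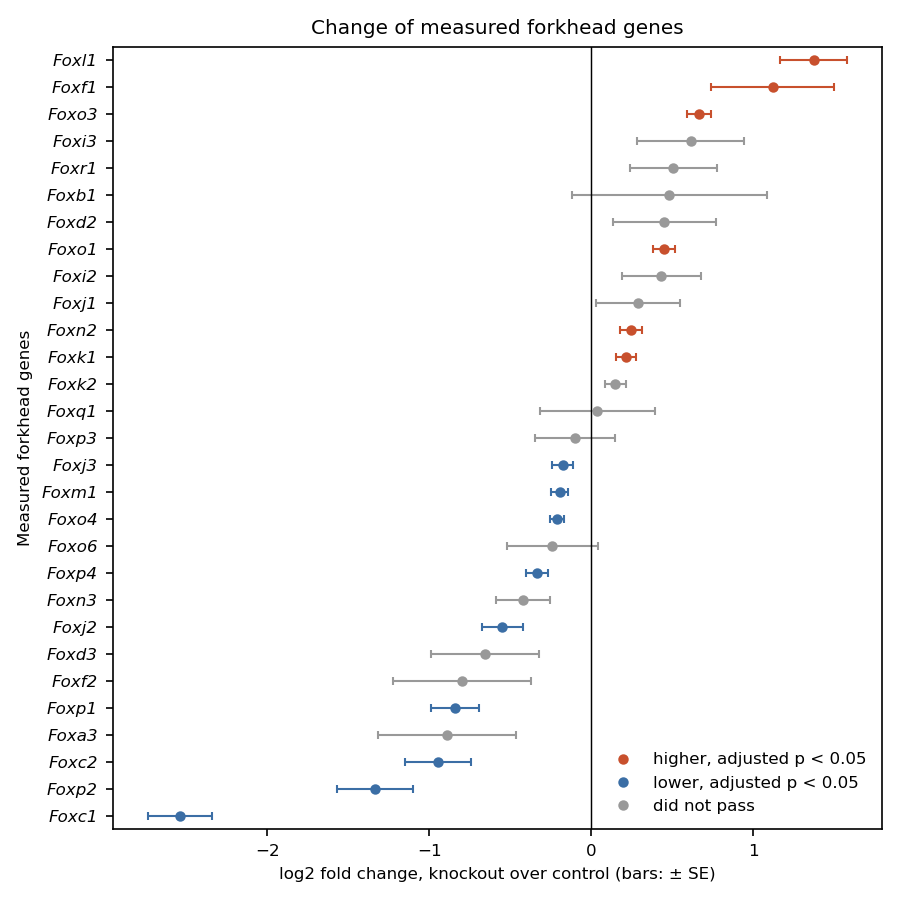
Log2 fold change of knockout over control (horizontal axis) for the 29 measured forkhead genes, with bars of ± SE and colours for the call at an adjusted p below 0.05. Foxc1 lies lowest at -2.54 and Foxl1 highest at 1.37, and the wide bars belong to genes of low count such as Foxb1 and Foxa3.

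Levels of different genes were compared per kilobase of exon. In controls Foxo4 was highest, at 39.5 ± 1.53 CPM per kb, followed by Foxk2 (27.7 ± 2.06), Foxm1 (27.5 ± 1.09), Foxp4 (17.6 ± 1.69), Foxk1 (8.44 ± 0.770) and Foxo3 (7.80 ± 0.918). Foxk2 and Foxm1 differed by less than their spread, as did Foxk1 and Foxo3. With the longest transcript as length Foxm1 (34.0 CPM per kb) came before Foxk2 (29.0). By that length Foxj3 was at 12.8 CPM per kb, above Foxo3 (8.62) and Foxk1 (8.60), while per kilobase of exon it was at 5.60. Foxp1 was at 8.48 by that length, so the order below Foxp4 depended on the length used. Foxc1 was at 4.61 ± 1.23 and Foxp1 at 4.42 ± 0.906 CPM per kb, and all measured members of the Foxa, Foxb, Foxd, Foxf, Foxi, Foxl, Foxq and Foxr subfamilies were below 0.5 CPM per kb. In knockouts Foxo4 remained highest at 34.0 CPM per kb, Foxo3 was at 12.3 and Foxc1 at 0.791. Summed over all 44 members, forkhead RNA came to 931.6 ± 63.0 CPM in the control and 868.3 ± 23.9 CPM in the knockout libraries, with overlapping ranges (869.0 to 1001.1 and 835.9 to 892.3).

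**Figure D3:**
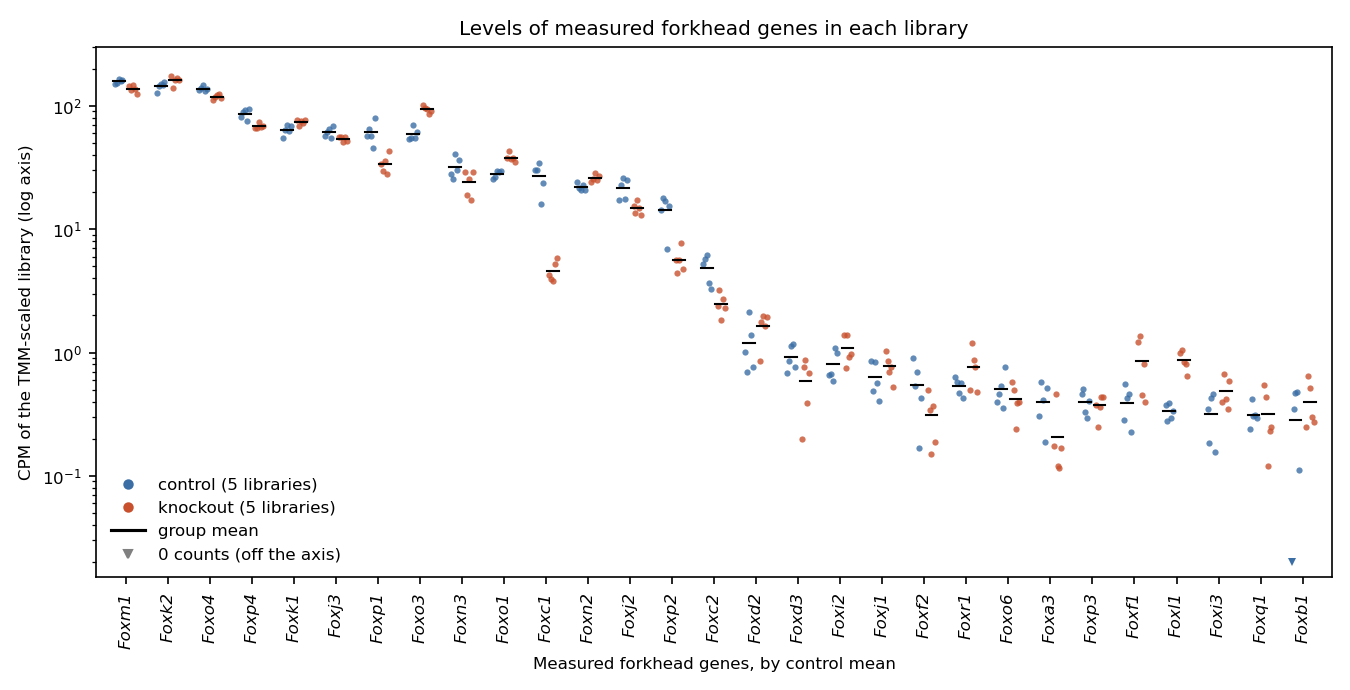
CPM of the TMM-scaled library (log axis) for each of the 29 measured forkhead genes, ordered by control mean, with 1 point per library (blue control, red knockout, n = 5 each), group means as black lines and a triangle for the control library with 0 counts of Foxb1. The groups separate widely for Foxc1, and for Foxl1 at levels of at most 1.05 CPM.

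Foxc genes of mesenchyme and vessels fell. Foxc1 (ENSMUSG00000050295, chromosome 13, 31806633 to 31812476, plus strand, GRCm38) was at 30.2, 30.2, 34.6, 16.1 and 23.7 CPM in controls 1 to 5 and at 4.26, 3.93, 3.801, 5.25 and 5.86 CPM in knockouts 1 to 5. Every knockout library lay below every control, and control 4 was the lowest control. Its mean fell from 27.0 ± 7.20 to 4.62 ± 0.895 CPM (5.81-fold lower, log2 fold change -2.54, SE 0.20, edgeR adjusted p = 2.0e-06). An exact permutation test on CPM (two-sided) gave p = 0.00794, the smallest value that 5 against 5 libraries allow. Foxc2 (ENSMUSG00000046714, chromosome 8, 121116171 to 121118895) was at 5.24, 5.73, 6.13, 3.69 and 3.28 CPM in controls and 2.37, 3.23, 1.84, 2.69 and 2.29 CPM in knockouts. The groups did not overlap, but control 5 and knockout 2 were nearly equal. Foxc2 fell by 0.95 on the log2 scale (SE 0.20, edgeR adjusted p = 0.00314). Cartilage and connective tissue markers were lower in the same libraries, with control 4 lowest among controls for both (574.3 and 219.5 CPM), and endothelial markers, of another tissue in which Foxc genes are active, were higher. The part of these cell types in the result was not tested.

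The Foxp repressors fell, apart from Foxp3. Foxp1 (ENSMUSG00000030067, chromosome 6, 98925338 to 99522721, minus strand) was at 57.0, 65.1, 57.2, 45.5 and 79.3 CPM in controls and at 33.5, 29.8, 35.4, 27.8 and 43.3 CPM in knockouts. All knockouts were lower than all controls, with the highest knockout close to the lowest control (log2 fold change -0.84, SE 0.15, edgeR adjusted p = 0.000819, exact permutation p = 0.00794). Foxp2 (ENSMUSG00000029563, chromosome 6, 14901349 to 15441977) was at 14.2, 17.8, 16.9, 6.89 and 15.4 CPM in controls and at 5.61, 4.41, 5.67, 7.74 and 4.73 CPM in knockouts. Control 4 lay within the knockout range, and the other controls above it. The log2 fold change of Foxp2 was -1.34 (SE 0.23, edgeR adjusted p = 0.000847, exact permutation p = 0.0159), and -1.51 without control 4. Foxp4 (ENSMUSG00000023991, chromosome 17, 47867133 to 47924645), the most abundant of the subfamily per kilobase, was at 80.8, 89.8, 92.6, 74.8 and 94.3 CPM in controls and at 65.8, 66.3, 74.4, 68.0 and 68.0 CPM in knockouts (-0.34, SE 0.07, edgeR adjusted p = 0.00185). The groups did not overlap, though control 4 and knockout 3 were nearly equal. Foxp3, the regulator of regulatory T lymphocytes, measured 0.399 ± 0.0906 CPM in controls and 0.372 ± 0.0776 CPM in knockouts (edgeR adjusted p = 0.795, not passed). Reads of Foxp3 are uncertain, since genes on the opposite strand share 12.9% (Ccdc22), 8.1% (Gm36995) and 5.8% (Ppp1r3f) of its exon bases and Flicr on the same strand 18.6%. Of the 8 T lymphocyte markers, Foxp3 among them, the kinase gene Lck made up most of the summed level of 13.96 to 15.8 CPM in controls and 13.7 to 19.7 CPM in knockouts (Lck 12.0 ± 0.653 and 11.48 ± 0.883 CPM), and Cd3e was below 0.1 CPM in every library.

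Of 16 partners and corepressors of FOXP proteins (the NuRD subunits and others), 4 rose, 1 fell and 11 did not pass, with a median log2 fold change of -0.01. Gatad2a, a subunit of NuRD, rose by 0.23 on the log2 scale (SE 0.06), and the histone-binding subunit Rbbp4 fell by 0.16 (SE 0.04). Without litter A 0 of the 16 rose, without the libraries of high Xist 2 rose and 3 fell, and without litter C or with controls lacking Cre alone 0 fell. Without control 4 or knockout 2, with DESeq2 and with limma 2 fell. The 5 called are 31.3% of the list, close to the 35.2% of all genes tested.

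Foxo genes moved in both directions. Foxo3 (ENSMUSG00000048756, chromosome 10, 42181841 to 42276755, minus strand) was at 54.1, 55.1, 70.4, 54.5 and 61.0 CPM in controls and at 100.8, 95.9, 94.6, 85.8 and 90.1 CPM in knockouts. Every knockout library lay above every control (log2 fold change 0.66, SE 0.08, edgeR adjusted p = 3.8e-05, exact permutation p = 0.00794). Foxo1 (ENSMUSG00000044167, chromosome 3, 52268336 to 52353221) was at 25.3, 26.5, 29.8, 28.9 and 29.5 CPM in controls and at 37.5, 43.1, 37.1, 37.6 and 35.2 CPM in knockouts, again without overlap (0.45, SE 0.07, edgeR adjusted p = 0.000338). Gm20402, antisense to Foxo1, overlaps 7.8% of its exon bases. Foxo4 (ENSMUSG00000042903, X chromosome, 101254528 to 101260873) was lower, at 133.9, 138.2, 146.4, 133.1 and 135.9 CPM in controls and 112.0, 119.0, 121.5, 125.7 and 114.8 CPM in knockouts. The groups did not overlap, and the change was small (-0.21, SE 0.04, edgeR adjusted p = 0.00224). Without litter A its log2 fold change was -0.20 and the call was lost (edgeR adjusted p = 0.0571). Foxo6 had 0.502 ± 0.162 CPM in controls and 0.420 ± 0.125 CPM in knockouts (edgeR adjusted p = 0.551, not passed). Summed over the subfamily, Foxo RNA came to 225.0 ± 13.3 CPM in the control and 250.6 ± 6.58 CPM in the knockout libraries. The ranges overlapped (213.64 to 247.05 and 240.59 to 258.57 CPM).

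Among 20 genes known as FOXO targets 19 were tested, of which 7 fell, 1 rose and 11 did not pass, with a median log2 fold change of -0.02. Those called are 42.1%, beside 35.2% of all genes. Called lower were 17.1% of all genes tested and 24.9% of those with a mean of at least 10 CPM. The list held genes on both sides of that level. Cdkn1b, an inhibitor of cyclin-dependent kinases, was at 50.1 ± 2.46 and 32.2 ± 2.41 CPM, and the sestrin genes Sesn1 (-0.59, SE 0.06) and Sesn3 (-0.62, SE 0.07) fell as well. With library size as the only scaling, or without litter B, 4 of the 19 fell. The count that rose was 2 in 7 of the alternatives, both replicate blocks among them. Of 20 genes that control FOXO proteins, 3 rose, 6 fell and 11 did not pass (median 0.01 and mean -0.05, which differ in sign). Those called are 45.0%, beside 35.2% of all genes tested. The ubiquitin ligase gene Mdm2, also a target of p53, rose by 0.82 (SE 0.06) and Pik3r1, a regulatory subunit of PI3K, by 0.54 (SE 0.06). The count of falls was 1 without litter A, and 3 without knockout 1, litter C or the libraries of high Xist. It was also 3 with library size as the only scaling, where 5 rose.

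Foxm1, the activator of mitotic genes (ENSMUSG00000001517, chromosome 6, 128362967 to 128376146), fell slightly. It was at 149.9, 153.5, 165.7, 159.7 and 161.2 CPM in controls and at 145.3, 134.5, 147.1, 137.5 and 124.8 CPM in knockouts. All knockouts were below all controls (log2 fold change -0.20, SE 0.05, edgeR adjusted p = 0.00895, exact permutation p = 0.00794). Of 20 mitotic targets of FOXM1, 12 fell and 8 did not pass (60.0%, beside 17.1% of all genes called lower and 24.9% of those at 10 CPM or more, as all 20 were), with a median log2 fold change of -0.21 beside -0.001 for all genes. Ube2c (-0.45, SE 0.04), Ccnb2 (-0.41, SE 0.04) and Ccnb1 (-0.36, SE 0.04), which act in entry to and exit from mitosis, had the smallest adjusted p. Without litter A 7 of the 20 fell. With library size as the only scaling, without knockout 5 or without litter D, 1 rose.

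Foxk1 rose. It was at 55.3, 63.8, 70.4, 62.4 and 68.1 CPM in controls and at 77.5, 69.1, 74.8, 72.6 and 76.6 CPM in knockouts, with control 3 above knockout 2 (log2 fold change 0.21, SE 0.06, edgeR adjusted p = 0.0211, exact permutation p = 0.0159). The call was lost without knockout 1 (adjusted p = 0.0509), litter A (0.136), litter C (0.0653) or the libraries of high Xist (0.0673) and with controls lacking Cre alone (0.0526), at log2 fold changes of 0.15 to 0.21. Foxk2 was at 128.0, 145.8, 149.1, 148.9 and 157.3 CPM in controls and at 173.2, 140.2, 161.6, 168.8 and 163.2 CPM in knockouts. These ranges overlapped, and Foxk2 did not pass (0.15, SE 0.07, edgeR adjusted p = 0.105, exact permutation p = 0.0794). It passed without knockout 2 (0.19, edgeR adjusted p = 0.0244) and with library size as the only scaling (0.20, 0.0213). Of 14 FOXK partners 2 fell and 12 did not pass (14.3% called, beside 35.2% of all genes tested, 17.1% lower). The 2 were the dishevelled genes Dvl1 (-0.24, SE 0.05) and Dvl2 (-0.25, SE 0.05), which transmit WNT signals. With a replicate block of number or of litter, and without control 4, 4 fell.

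Among the Foxj and Foxn genes, Foxj2 (ENSMUSG00000003154, chromosome 6, 122819914 to 122845366) fell. It was at 17.2, 22.7, 26.0, 17.6 and 25.1 CPM in controls and at 15.3, 13.6, 17.3, 14.97 and 13.1 CPM in knockouts. Control 1 and knockout 3 were nearly equal, and the other libraries were separated by group (log2 fold change -0.55, SE 0.13, edgeR adjusted p = 0.00487, exact permutation p = 0.0159). Foxj3 was at 61.4 ± 5.39 and 54.2 ± 2.42 CPM (-0.18, SE 0.06, edgeR adjusted p = 0.0425), a call that was lost in 18 of 26 alternative analyses, among them both replicate blocks (adjusted p = 0.0978 by number and 0.0739 by litter). Foxj1, the regulator of motile cilia, had 0.629 ± 0.205 CPM in controls and 0.771 ± 0.187 CPM in knockouts (edgeR adjusted p = 0.435, not passed). Of 20 listed motile cilia genes, Foxj1 among them, 12 were tested, and 3 rose, 2 fell and 7 did not pass (41.7% called, beside 35.2% of all genes tested). Rsph9, a radial spoke gene, fell from 3.38 ± 0.396 to 1.62 ± 0.430 CPM and Ccdc39, a gene of the ciliary axoneme, from 6.77 ± 1.12 to 3.02 ± 1.03 CPM, while Cfap126 rose by 1.10 on the log2 scale (SE 0.20). Foxn2 rose from 22.1 ± 1.49 to 26.1 ± 1.81 CPM (0.24, SE 0.07, edgeR adjusted p = 0.0128), and did not pass without litter B (0.19, 0.0706) or litter D (0.21, 0.0613). Foxn3 had 32.2 ± 6.17 CPM in controls and 24.0 ± 5.58 CPM in knockouts and missed the threshold (-0.42, SE 0.17, edgeR adjusted p = 0.0668). It passed with a replicate block of number (-0.43, adjusted p = 0.0218) or litter (-0.42, 0.0376), without control 2, knockout 1 or knockout 5 (-0.50 in each), and with DESeq2 (-0.42, 0.0361).

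Forkhead genes lie close to one another in 3 places. On chromosome 8, Foxf1, Foxc2 and Foxl1 follow each other on the plus strand with gaps of 28.0 kb and 9.04 kb, and on chromosome 13 Foxq1, Foxf2 and Foxc1 with gaps of 64.8 kb and 175.2 kb. On chromosome 4, Foxd2 and the silent Foxe3 are 16.3 kb apart. On chromosome 8 the members moved in both directions. Foxl1 (ENSMUSG00000097084, 121127940 to 121130644) was at 0.372, 0.279, 0.388, 0.292 and 0.337 CPM in controls and at 0.997, 1.05, 0.845, 0.806 and 0.646 CPM in knockouts. Every knockout was above every control, on counts of 12 to 19 and 28 to 55 per library (log2 fold change 1.37, SE 0.21, edgeR adjusted p = 0.000287, exact permutation p = 0.00794). Foxf1 (ENSMUSG00000042812, 121084386 to 121088144) was at 0.285, 0.557, 0.429, 0.459 and 0.225 CPM in controls and at 1.22, 1.36, 0.453, 0.806 and 0.396 CPM in knockouts. Knockouts 1, 2 and 4 lay above all controls and knockouts 3 and 5 within their range (1.12, SE 0.38, edgeR adjusted p = 0.0371, exact permutation p = 0.0714).

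The call of Foxf1 was lost in 13 of 26 alternative analyses. Its log2 fold change was 0.56 without litter A (edgeR adjusted p = 0.391), 0.82 with controls lacking Cre alone (0.192), 0.88 without knockout 2 (0.103), 0.96 without knockout 1 (0.0890), 0.97 without control 5 (0.0809) and 1.02 without control 1 (0.0839). It also missed the threshold without control 3, control 4, knockout 4, litter C or the libraries of high Xist (adjusted p = 0.0517 to 0.0769) and with limma on the deposited normalized table (0.0617 and 0.0628). Between Foxf1 and Foxc2 lies Mthfsd, which did not pass (0.09, edgeR adjusted p = 0.311), and beside Foxf1 on the opposite strand lies the long noncoding Fendrr, at 0.281 ± 0.120 and 0.277 ± 0.226 CPM. On chromosome 13, Foxf2 had 0.544 ± 0.276 CPM in controls and 0.310 ± 0.142 CPM in knockouts and missed the threshold (-0.80, SE 0.42, edgeR adjusted p = 0.172). Without control 4 Foxf2 passed (-1.03, edgeR adjusted p = 0.0442). Foxq1 was at 0.314 ± 0.0645 and 0.318 ± 0.172 CPM, and the antisense A530084C06Rik overlaps 66.1% of its exon bases, so that reads counted without strand could belong to either.

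**Figure D4:**
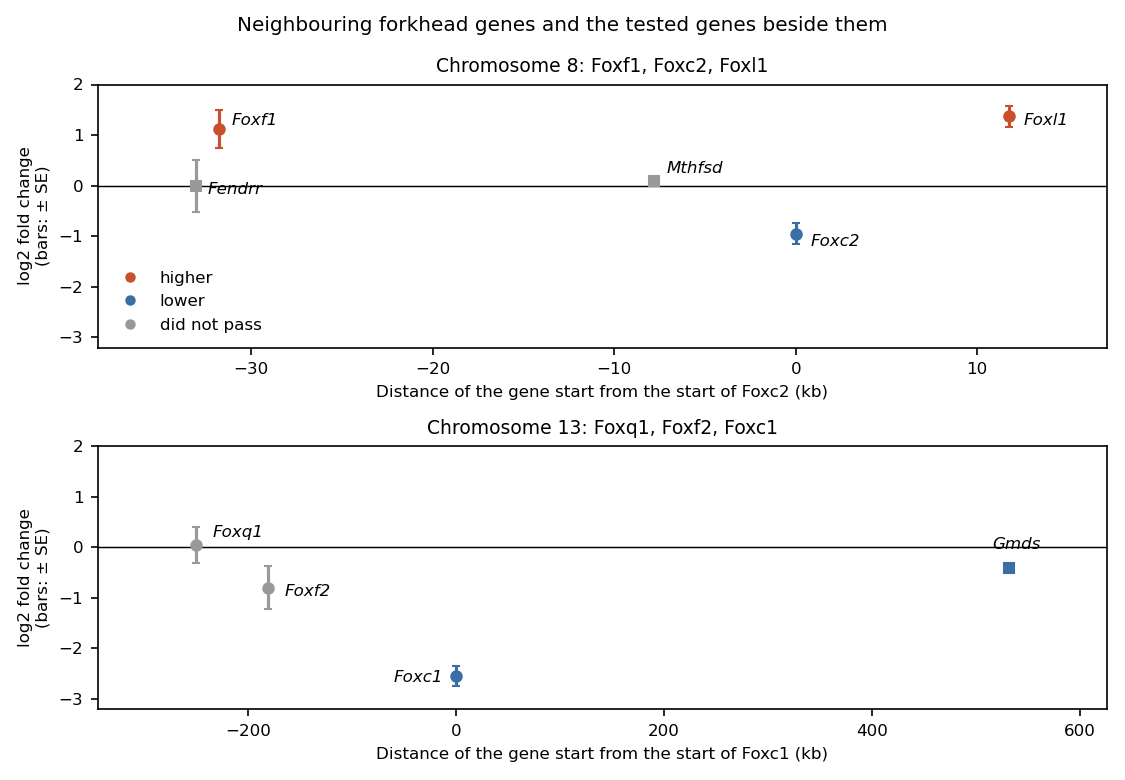
Log2 fold change of knockout over control (vertical axis, bars ± SE) against the distance of each gene start from the start of Foxc2 (upper panel) or Foxc1 (lower panel) in kb, for forkhead genes (circles) and other tested genes that lie among or beside them (squares), leaving out Gm20388, a gene model that spans the whole upper region. On chromosome 8 Foxc2 lies at -0.95 between Foxf1 at 1.12 and Foxl1 at 1.37, and on chromosome 13 Foxc1 lies at -2.54 and Gmds at -0.40.

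Hedgehog signals act upstream of Foxf1, Foxf2 and Foxl1. Of 14 hedgehog genes, 6 rose, 6 fell and 2 did not pass (85.7% called, beside 35.2%), with a median log2 fold change of -0.19 and a mean of 0.13, which differ in sign. The ligand gene Dhh rose from 0.155 ± 0.0808 to 0.634 ± 0.0406 CPM, while the co-receptor gene Boc fell from 80.2 ± 15.4 to 38.4 ± 5.96 CPM.

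The remaining measured members were low. Foxd2, Foxd3, Foxi2, Foxi3, Foxr1, Foxa3 and Foxb1 had means of 0.207 to 1.64 CPM in both groups and did not pass (edgeR adjusted p from 0.130 to 0.588). Foxd3, a factor of neural crest, was at 0.919 ± 0.217 and 0.583 ± 0.280 CPM (-0.66, SE 0.33). Of 8 Schwann precursor and neural crest markers, a list that holds Foxd3 itself, 3 fell and 0 rose. These are 37.5%, beside 17.1% of all genes called lower and 35.2% called in either direction. With somite stage as a term Foxd3 passed (-0.81, edgeR adjusted p = 0.0443). Foxa3, a gene of endoderm and liver, had 10 or more counts in 5 libraries and so lay just inside the rule, at 0.400 ± 0.158 and 0.207 ± 0.143 CPM. It passed without knockout 2 (-1.44, edgeR adjusted p = 0.0138) and with a replicate block of number (-0.99, 0.0403). Foxn1, a gene of thymus and skin epithelium with 10 or more counts in 3 libraries, lay just outside the rule. An antisense gene, B230323A14Rik, overlaps part of the exon of Foxb1.

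Among the 15 silent members were Foxa1, Foxa2, Foxb2, Foxd1, Foxd4, Foxe1, Foxe3, Foxh1, Foxi1, Foxl2, Foxn1, Foxn4, Foxr2 and Foxs1. Their counts ran from 0 to 17 per library, with the highest in Foxd1. Foxe3 and Foxi1 had 0 counts in all 10 libraries, which by a limit of 3 counts allows a level of up to 0.060 CPM where sequencing was deepest and 0.090 CPM where it was shallowest. Foxa1 and Foxa2, which mark endoderm, had at most 6 counts per library, and Foxs1, of sensory neurons and pericytes, at most 9. Foxd1, a factor of kidney stroma, had 42 counts in all controls together and 9 in all knockouts, and Foxn1 26 and 50. These members were not tested.

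Within litters the directions of the called members mostly held. The 6 members that rose were higher in knockouts in all 4 litters, and 7 of the 9 that fell were lower in all 4, which the calls on the same libraries in part ensure. The exceptions were in litter C, where Foxp2 changed by 0.17 and Foxj3 by 0.02 on the log2 scale. Foxc1 changed by -2.88 in litter A, -3.19 in litter B, -1.62 in litter C and -2.02 in litter D. Control 4, of litter C, was the lowest control in 6 of the 9 members that fell, namely Foxc1, Foxj3, Foxo4, Foxp1, Foxp2 and Foxp4. Its somite stage was 49, while that of the other controls was 50 or 51. The part of stage, of litter or of the lower cartilage markers in that library was not tested.

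**Figure D5:**
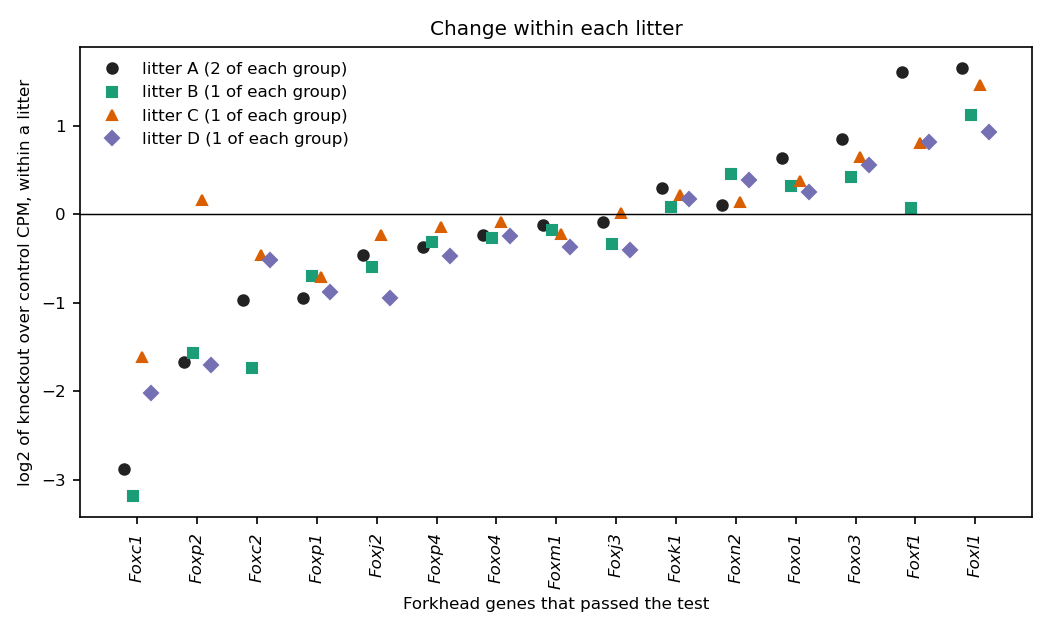
Log2 of knockout over control CPM within each litter (vertical axis) for the 15 forkhead genes that passed the test, in order of their change, with litter A (2 libraries of each group) as circles and litters B, C and D (1 of each) as squares, triangles and diamonds. All 4 litters lie below 0 for Foxc1 and above 0 for Foxl1, and Foxp2 in litter C lies at 0.17.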

How the data were processed

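The 10 libraries of total RNA from forelimb buds were grouped by their titles. The labels name embryos of 4 litters but do not say that each library is 1 embryo, so n counts libraries. The authors deposited estimated counts per Ensembl gene and a second table, named as FPKM, whose signal equalled each rounded count over a factor of its library (100.0% of values within 0.01 of a rounded count). The tools listed in the submitters' processing notes are DESeq2 1.16.1, Salmon 0.8.2 and R 3.4.1, with the build mm10. For strand use, no setting is stated in the sources used here. Counts were rounded, filtered with filterByExpr (minimum count 10, total 15), and normalised by TMM. The test was edgeR 4.0.16's quasi-likelihood test (R 4.3.3), knockout against control, without covariates, adjusted by Benjamini-Hochberg over 20562 genes. All adjusted p-values without another name are from that test. SE is the log2 fold change divided by the root of the F statistic. DESeq2 1.42.0 and limma 3.58.1 were alternatives. Symbols, positions and exon lengths came from GENCODE M21 (GRCm38, as mm10). The members and lists were chosen with earlier results of these data known.

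Library totals ran from 33274911 to 49880815 counts, and limits from counts cover counting error only. Libraries of the same number shared a litter by their labels, and their deviations from the group means correlated at -0.013, 0.155, -0.025, 0.042 and 0.20, so blocks of number and litter were alternatives. Named genes were all measured members, given by library where the change passed with a log2 size of 0.5 or more, where the level was among the 5 highest, or for 6 preset genes, plus up to 3 genes of each list with the smallest adjusted p. Protein sequences were not used here, and some named genes are not reported here. Permutation tests ignored litters.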

Additional observations from a re-analysis of the deposited data

Results flagged for a closer look

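In 58 groups of 5 libraries (29 measured members, 2 groups each), 2 libraries stood apart from the other 4 of their group by Dixon's criterion, a gap of over 0.71 of the range of the group. Chance marks about 1 in 20 groups. Foxa3 was at 0.458 CPM in knockout 2 and at 0.115 to 0.174 CPM in the other knockouts. Foxp4 was at 74.4 CPM in knockout 3 and at 65.8 to 68.0 CPM in the other knockouts.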

How the results depend on the processing

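Under 26 alternatives the count of members that rose stayed between 4 and 7 and of those that fell between 7 and 10. Leaving out 1 library at a time gave 4 to 6 and 8 to 10. Over all genes, leaving out 1 library gave 3183 to 3600 higher and 3096 to 3428 lower, and leaving out litter A, which leaves 3 against 3, gave 2002 and 2021. With a replicate block of litter 6 members rose and 9 fell, and with a block of number 6 and 10. Of the 15 called members 10 passed in every alternative (Foxc1, Foxc2, Foxj2, Foxl1, Foxm1, Foxo1, Foxo3, Foxp1, Foxp2 and Foxp4), 5 lost the call at least once (Foxf1, Foxj3, Foxk1, Foxn2 and Foxo4) and 0 changed sign. The block ended the call of Foxj3 and added Foxn3, and by number Foxa3, and changed no other member's call. The uncalled Foxq1, Foxp3 and Foxb1 (0.04, -0.10 and 0.48 with all libraries) changed sign without passing. Foxq1 was at -0.0584 with the block of number and -0.0643 with that of litter, -0.05 without control 1, -0.23 without knockout 1, -0.11 without knockout 2 (-0.23 to 0.22 leaving out 1 library at a time), -0.57 without litter A, -0.10 with controls lacking Cre alone, and -0.13 and -0.14 with limma on the normalized table (pseudocounts 1 and 0.5). Foxp3 was at 0.0014 without control 2, 0.0245 without knockout 2 (-0.19 to 0.0245 leaving out 1 library at a time) and 0.28 without litter A, and Foxb1 at -0.011 without litter A and -0.13 with controls lacking Cre alone. The cause was not tested. Library size as the only scaling moved the median of all genes to 0.05. The 14 members below 2 CPM rest on few counts.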
